A study of Arabidopsis thaliana with 12 samples.

Results

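The nuclear photosynthesis genes described here are 42 of the 27444 protein-coding genes that the RefSeq annotation of TAIR10.1 places on the nuclear chromosomes of Arabidopsis thaliana. They were listed by function and not by methylation. The list holds 14 LHCB genes and 6 LHCA genes for the light-harvesting antenna proteins, 12 genes for subunits of photosystem I (PSI), 6 genes for subunits of photosystem II (PSII) and 4 RBCS genes for the small subunit of Rubisco. All 42 were found at their loci, with gene lengths of 780 to 2154 bp.

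Chlorophyll-binding LHCB proteins gather light mainly for PSII and LHCA proteins for PSI, while Rubisco fixes carbon dioxide. These proteins are encoded in the nucleus, made in the cytosol and imported into the chloroplast. Many of their genes, though not all, are among the most strongly expressed of green leaves. In Arabidopsis, CpG methylation inside genes is common in long, moderately and broadly expressed genes, where it lies mostly away from the gene ends, while methylation of transposons usually reaches high levels on most molecules.

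The series holds DNA of Col-0 plants, labelled as leaf although the study's methods describe plants with the roots removed, in 12 labelled libraries, with 4 from plants given salicylic acid in chitosan nanoparticles (SA-CNPs), 4 from plants inoculated with the powdery mildew fungus Podosphaera xanthii (pathogen) and 4 from Control plants. After enzymatic methyl-seq, in which enzymes convert unmethylated cytosines, 1 pooled table gave the numbers of methylated and unmethylated reads at each CpG cytosine and strand. No source used here says which libraries it combines, and they may come from a single treatment or from several, so the values describe 1 pooled sample of unknown condition without replicate error, and no treatment was compared with another. Nuclear CpG cytosines had a median of 58 reads and a level of 26.6%. The chloroplast genome, usually taken as unmethylated, showed 0.367% methylated calls, which serves here as a reference for low levels.

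A level is the share of methylated calls among all calls at the CpG cytosines of a region, with its 95% Wilson interval, which covers counting error only. The bodies of the 42 genes held 3960 CpG cytosines, all of them covered, and the median coverage of a body lay between 46 and 66 reads. Of 225258 calls in the bodies, 8582 were methylated, a level of 3.81% (3.73 to 3.89%). In the 1000 bp on either side, the flanks, the level was 14.5% (14.4 to 14.7%), from 32535 of 224152 calls. The photosynthesis genes were thus lower inside than beside.

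The median body level per gene was 0.473% for the photosynthesis genes and 4.72% for the other protein-coding genes. The photosynthesis genes were also shorter, with a median length of 1441.5 bp, against 2085 bp for the other protein-coding genes. Other protein-coding genes within 10% of the length of any photosynthesis gene are called here genes of similar length. They were not matched gene by gene and were still longer, with a median length of 1611 bp. Their median body level was 0.673%. The pooled body level, in which genes with many methylated cytosines weigh more, was 3.81% for the photosynthesis genes, 9.40% for other genes of similar length and 16.4% for all other protein-coding genes. The bodies of the photosynthesis genes were rich in CpG, with 66.1 CpG cytosines per kb, against 57.9 per kb in other genes of similar length.

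The flanks were higher by the median per gene, and less so by the pooled level. The median flank level per gene was 9.70% for the photosynthesis genes, 3.33% for other genes of similar length and 3.57% for all other protein-coding genes. Summed gene by gene, the pooled flank level was 14.1% for the photosynthesis genes and 12.6% both for other genes of similar length and for all other protein-coding genes. Flank levels of 10% or more were found for 21 of the 42 genes, against 37.8% of all protein-coding genes. Body level lay below flank level in 33 of the 42 genes, against 47.8% of all protein-coding genes, and above it in 9. This share was not counted among genes of similar length. Their median body level, 0.673%, also lay below their median flank level of 3.33%.

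**Figure D1:**
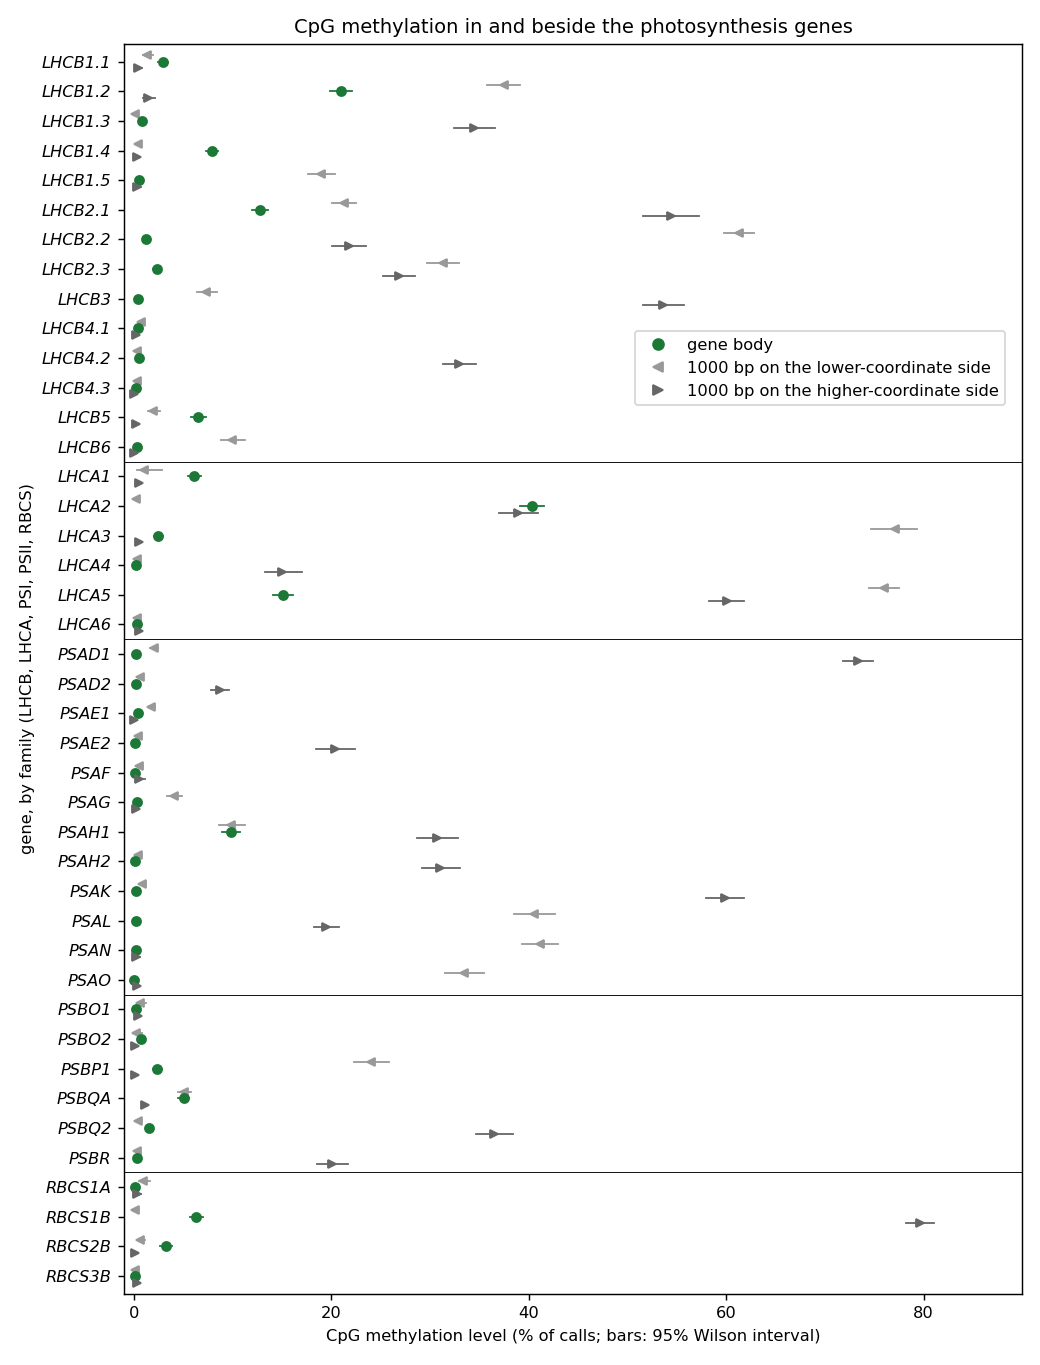
CpG methylation level (percent of calls, horizontal axis) of the body (circles), the lower-coordinate flank (left-pointing triangles) and the higher-coordinate flank (right-pointing triangles) of each of the 42 genes, by family, with 95% Wilson intervals as bars. Only LHCB1.2, LHCB2.1, LHCA2 and LHCA5 have a body level of 10% or more, while flank levels reach 79.6% (RBCS1B).

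Only 4 of the 42 genes, or 9.52%, had a body level of 10% or more, against 40.3% of all protein-coding genes and 24.1% of other protein-coding genes of similar length. They were the antenna genes LHCA2 (40.3%), LHCB1.2 (21.0%), LHCA5 (15.1%) and LHCB2.1 (12.7%). A further 13 genes lay between 1% and 10%, and 25 lay below 1%. The study took a cytosine as methylated from 25% of reads upwards. By this minimum 25 of the 42 bodies held no methylated cytosine, against 39.5% of all protein-coding genes and 55.2% of other genes of similar length. In these 25 bodies no cytosine exceeded 18.8%, and body levels ran between 0.0357% and 0.786%. The interval of the body level lay wholly below the chloroplast value in 8 genes and wholly above it in 21. The chloroplast value was thus no floor for nuclear bodies, and these counts were not made for other protein-coding genes.

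The rule of the list set each gene, body and flanks together, beside protein-coding genes of similar CpG number, of which 1601 to 6056 lay within 10% of the number of a photosynthesis gene. By this measure 23 of the 42 genes were below the median of their similar genes, and a photosynthesis gene was higher than a median of 41.9% of them. This side of the middle depended on the choice. The share was 54.6% among genes within 10% of each gene's own length and 51.5% with flanks of 2000 bp. For the bodies alone 28 of the 42 were below that median, and the median share of lower genes was 32.1%. The extremes were RBCS3B, higher than 1.03% of its similar genes, and LHCA5, higher than 96.5%. LHCA2 (91.7%) was the only other gene above 90%.

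By distance from the nearest gene end, the photosynthesis genes were below other genes throughout the body and just outside it. In the outermost 10% of the gene length the level was 1.02% in the photosynthesis genes, against 6.36% in other genes of similar length. In the first 100 bp outside the gene it was 3.08% in the photosynthesis genes and 7.14% in genes of similar length. The order turned farther out. Between 400 and 500 bp outside, the level was 18.9% beside the photosynthesis genes and 13.5% beside genes of similar length, and between 900 and 1000 bp it was 21.7% and 15.0%, in the same order of groups. In the central 20% of the gene the level was 5.33% in the photosynthesis genes and 12.1% in genes of similar length, and without LHCA2 that of the photosynthesis genes was 2.62%.

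**Figure D2:**
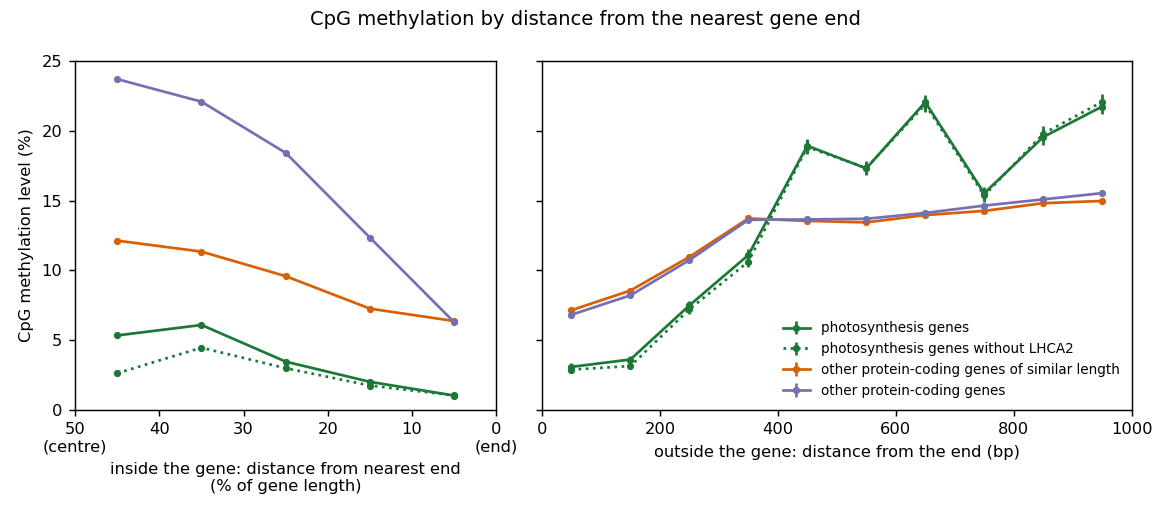
CpG methylation level (percent) by distance from the nearest gene end, inside genes as percent of gene length (left) and outside as bp (right), for the photosynthesis genes with and without LHCA2, other protein-coding genes of similar length and all other protein-coding genes, with 95% Wilson intervals as bars. The photosynthesis genes stay below genes of similar length up to 400 bp outside the gene and above them beyond.

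Methylated body cytosines numbered 267 in 17 genes, and their levels were mostly intermediate. Of the 267, 234 (87.6%) lay between 25% and 75%, against 16.6% of the methylated body cytosines of the other protein-coding genes and 26.2% in other genes of similar length. An intermediate level means that some of the sequenced molecules carried the methyl group and others did not, and cells, alleles and merged libraries cannot be told apart in the table. In all 17 genes most methylated cytosines were intermediate, against 23.7% of all protein-coding genes with such a cytosine. Weakly methylated genes show this more often in general. Among other protein-coding genes with a methylated cytosine the share was 56.0% where the body level was under 10%, and 7.42% where it was 10% or more, while it held for all 13 and all 4 of the photosynthesis genes in those classes.

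In 12 of the 17 genes no methylated body cytosine exceeded 75%, a count not made for other protein-coding genes. Among the 12 were LHCB2.2, LHCA3 and PSBQ2, with only 1 or 2 methylated body cytosines. Of the 33 cytosines above 75%, 25 lay in LHCA2, 4 in LHCA5, 2 in PSBQA, 1 in LHCB2.1 and 1 in LHCA1. Without LHCA2 the intermediate share was 95.6%, or 173 of 181. Methylation lay on both strands. Of 1980 CpG sites in the bodies, 143 were at 25% or more on at least 1 strand and 124 on both, the median difference between strands was 6.60 percentage points, and at none of the 143 was the other strand under 10%. In 15 of the 17 genes every methylated body cytosine lay more than 250 bp from both ends, with LHCB2.1 and PSAH1 as the exceptions. This was not counted for other protein-coding genes, and LHCB2.2, LHCA3 and PSBQ2 held only 1 or 2 such cytosines. By the base after the CpG, the body level was 4.35% before A, 4.27% before C, 4.27% before G and 2.23% before T.

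LHCA2 (AT3G61470, chromosome 3, 22745514 to 22747444) encodes an antenna protein of PSI and had the highest body level of the list. Of 6502 body calls 2621 were methylated, a level of 40.3% (39.1 to 41.5%), higher than in 94.5% of genes of similar CpG number. At 86 of its 124 CpG cytosines the level was 25% or more, with a range of 25.5% to 97.2%. These 86 cytosines spanned 982 bp, 22746181 to 22747162, and stopped 667 bp short of the lower-coordinate end and 282 bp short of the higher-coordinate end. The lower-coordinate flank was at 0.172%. The higher-coordinate flank was at 38.9%, with 30 methylated cytosines of which the nearest lay 52 bp from the gene, and none of them lay in a gene of the annotation used here. In that flank 8 cytosines were listed with 0 reads, the only ones in or beside the 42 genes, and since no cytosine of the table has 1 to 4 reads, they may have had fewer than 5.

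LHCA5 (AT1G45474, chromosome 1, 17179250 to 17180806) belongs to the scarce LHCA proteins that link PSI to the chloroplast NDH complex. Its level over body and flanks, 43.7% (42.7 to 44.6%), was the highest of the list. The body was at 15.1% (14.1 to 16.1%), with 20 of 84 cytosines methylated within 364 bp. The lower-coordinate flank was at 76.0% and the higher-coordinate flank at 60.0%, and methylated cytosines came as close as 105 bp and 27 bp to the gene. On the higher-coordinate side all 38 methylated cytosines lay in AT1G45545, a protein-coding gene with a body level of 52.6%. Between these flanks, the first methylated body cytosine lay 861 bp from the lower-coordinate end.

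The other LHCA genes were lower in the body. LHCA1 (AT3G54890, chromosome 3, 20339504 to 20341176), one of the main PSI antenna genes, was at 6.07%, with 8 methylated cytosines of 26.0% to 80.0% within 219 bp. LHCA3 (AT1G61520, chromosome 1, 22699715 to 22701412), also a PSI antenna gene, was at 2.44%, with both cytosines of 1 CpG site methylated at 40.4% and 49.0%. Its lower-coordinate flank stood at 77.0%, with 34 methylated cytosines, none closer than 642 bp. LHCA4, the antenna partner of LHCA1, had a body level of 0.169%. LHCA6 (AT1G19150, chromosome 1, 6612630 to 6613972), which like LHCA5 serves the link to the NDH complex, was the lowest of the family over body and flanks, at 0.345% (0.263 to 0.452%). The LHCA family thus held both the highest body of the list and bodies without a methylated cytosine.

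**Figure D3:**
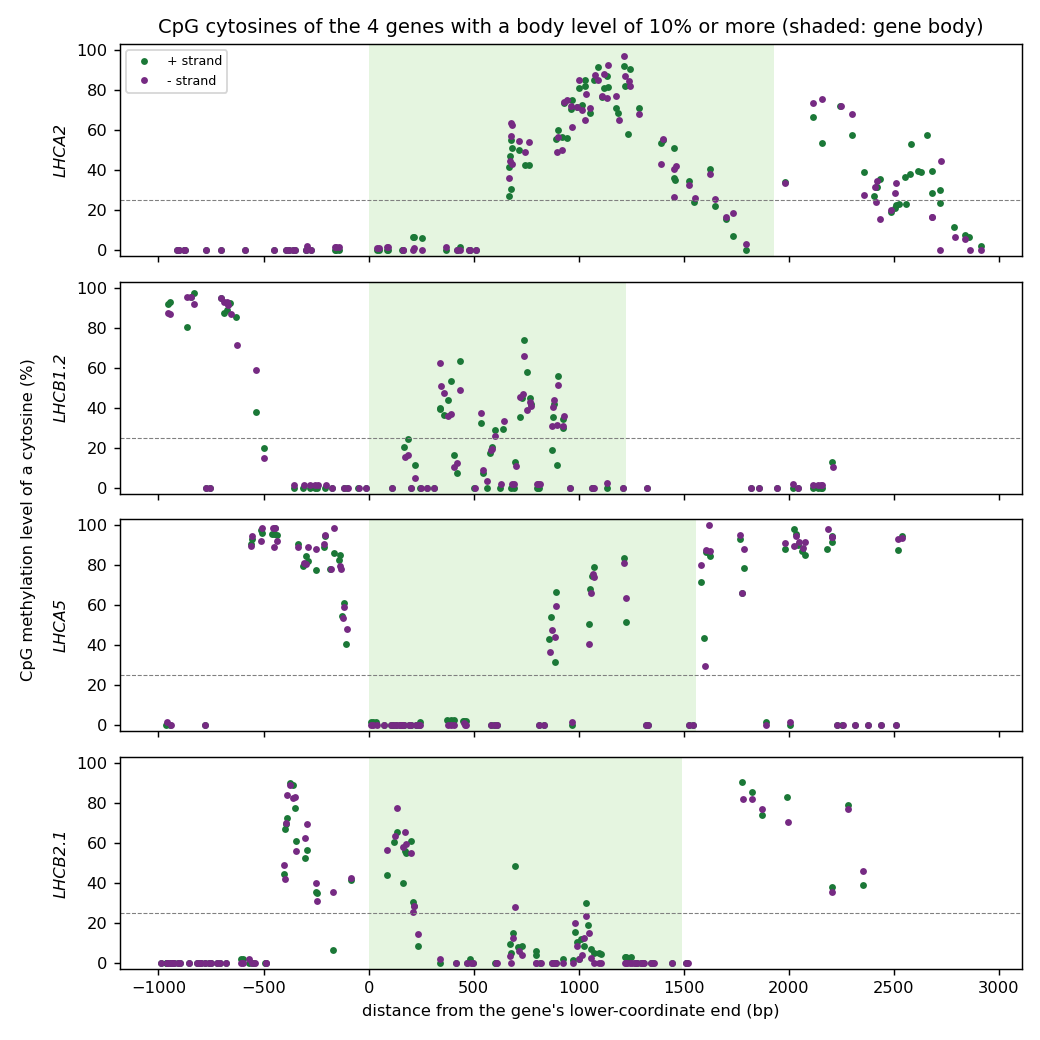
CpG methylation level (percent) of each cytosine of LHCA2, LHCB1.2, LHCA5 and LHCB2.1 and their 1000 bp flanks, by distance in bp from the lower-coordinate end, with the gene body shaded, the strands in 2 colours and a dashed line at 25%. Within the shaded bodies of LHCA2, LHCB1.2 and LHCA5 the cytosines above 25% sit away from both ends, while in LHCB2.1 they start 86 bp from an end, and each gene has further cytosines above 25% in a flank.

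LHCB1 and LHCB2 proteins form the trimeric light-harvesting complex of PSII, the most abundant antenna of the leaf. Their 8 genes ranged from 0.531% to 21.0% in the body. LHCB1.2 (AT1G29910, chromosome 1, 10472280 to 10473502) was the highest, with 1104 of 5267 calls or 21.0% (19.9 to 22.1%), and 42 of its 98 cytosines were methylated at 25.9% to 74.0% over 589 bp. Next to it, LHCB1.1 (AT1G29920, chromosome 1, 10474656 to 10475969) was at 2.89%, with 4 methylated cytosines within 44 bp. LHCB1.3 (AT1G29930, chromosome 1, 10477885 to 10479114), the last of the cluster of 3, was at 0.786% (0.588 to 1.05%), with none. On chromosome 2, LHCB1.4 (AT2G34430, 14524607 to 14525918) was at 7.88% (7.27 to 8.53%) with 18 methylated cytosines. Its neighbour LHCB1.5 (AT2G34420, 14522524 to 14523568), whose 100 body cytosines all lay inside another annotated gene as well, was at 0.531% with none. Neighbouring copies of the same antenna gene thus differed far beyond their counting intervals.

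The LHCB1 bodies resemble each other enough to be placed on each other by the spacing of their CpG sites, in either orientation, a comparison chosen after the values were seen. Of 49 CpG sites in LHCB1.2 and 51 in LHCB1.3, 40 matched at the best offset, against 13 at the next best. Over these 40 sites the level was 23.2% in LHCB1.2 and 0.975% in LHCB1.3. At 19 of them LHCB1.2 was at 25% or more, and at 18 of the 19 LHCB1.3 was under 10%. At the 34 sites shared with LHCB1.1, LHCB1.2 was at 19.7% and LHCB1.1 at 3.50%, and at the 30 shared with LHCB1.5 it was at 22.8%, against 0.450% in LHCB1.5. The depth was alike, with 4305 calls in LHCB1.2 and 4410 in LHCB1.3 over their 40 sites.

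Where LHCB1 copies were methylated, some sites coincided and others did not. At the site 342 bp into LHCB1.2, the level was 44.7% in LHCB1.2, 59.8% in LHCB1.4, 16.1% in LHCB1.1, 15.2% in LHCB1.3 and 1.85% in LHCB1.5. At the site 732 bp in, it was 45.9% in LHCB1.2, 59.5% in LHCB1.4 and 31.9% in LHCB1.1, while LHCB1.3 and LHCB1.5 were at 0%. At 435 bp, in contrast, LHCB1.2 was at 56.6% and LHCB1.4 at 0%. At 690 bp the level was 0.943% in LHCB1.2, 30.3% in LHCB1.4 and 41.5% in LHCB1.1. LHCB1.2 and LHCB1.4 shared 26 sites (11 at the next best offset), of which 9 were methylated in LHCB1.2, 6 in LHCB1.4 and 4 in both. Of the 9, 5 were under 10% in LHCB1.4, and of the 6, 2 were under 10% in LHCB1.2. Whether more sites coincided than unrelated placing would give was not tested. Only uniquely mapped reads were kept, and whether reads of these near copies were placed correctly was not tested.

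**Figure D4:**
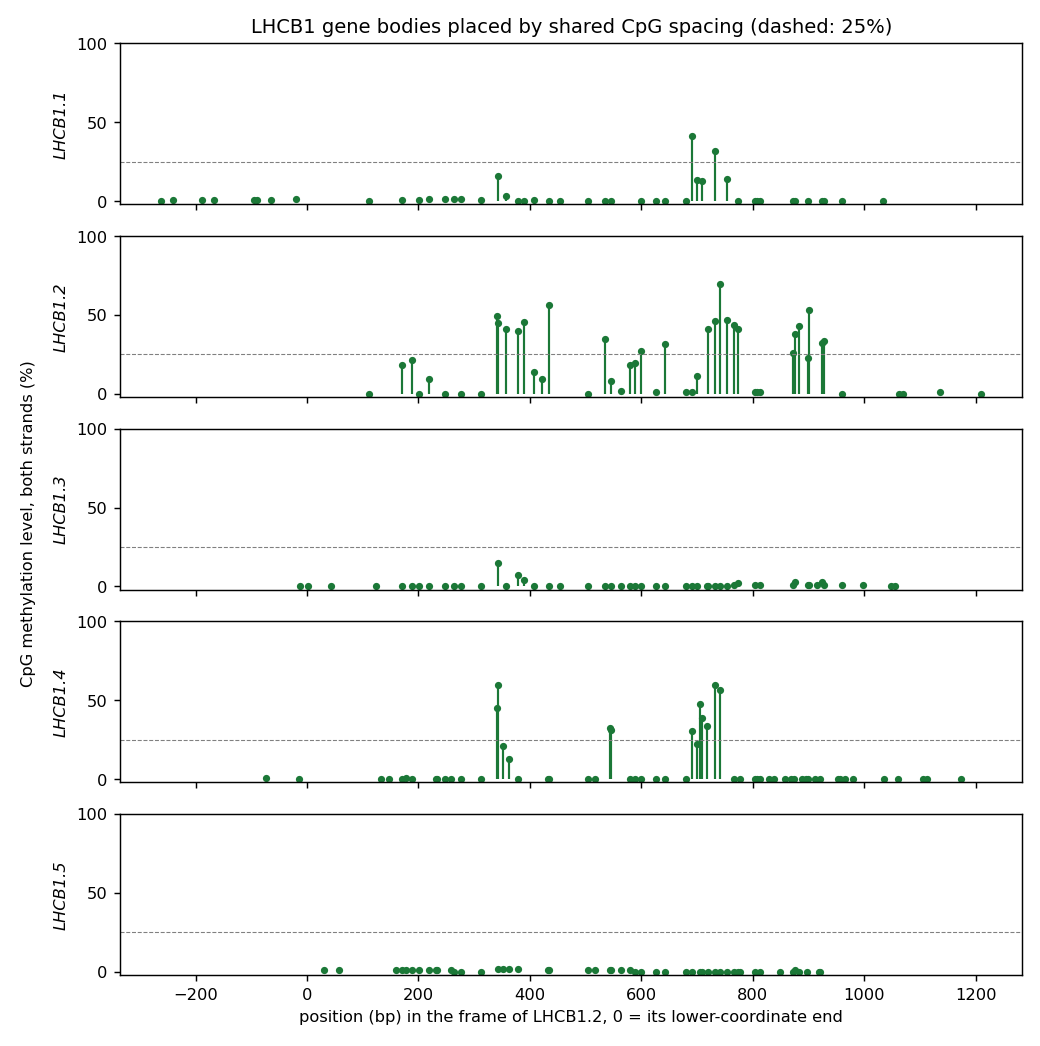
CpG methylation level (percent, both strands summed) at each CpG site of the bodies of the 5 LHCB1 genes, placed by shared CpG spacing on the coordinates of LHCB1.2 in bp from its lower-coordinate end, with a dashed line at 25%. LHCB1.2 and LHCB1.4 carry sites above 25% near 342 and 732 bp, LHCB1.1 carries 2 sites above 25%, at 690 and 732 bp, and LHCB1.3 and LHCB1.5 carry none.

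LHCB2.1 (AT2G05100, chromosome 2, 1822990 to 1824480) was the fourth gene with a body level of 10% or more, at 12.7% (11.9 to 13.6%). Of its 110 cytosines 21 were methylated, and unlike in the other 3 genes these began 86 bp from the lower-coordinate end, with a methylated flank cytosine 83 bp outside it. Its flanks were at 21.2% and 54.4%, and their methylated cytosines lay in no gene of the annotation used here. LHCB2.2 (AT2G05070, chromosome 2, 1799234 to 1800472) had 1 methylated cytosine and a body level of 1.19%, although its level over body and flanks, 26.9% (26.0 to 27.7%), was the highest of the LHCB family. Its lower-coordinate flank stood at 61.3%, and 69 methylated cytosines of it lay in the protein-coding gene AT2G05060, whose own body level was 65.5%. LHCB2.3 (AT3G27690, chromosome 3, 10255906 to 10257489) was at 2.29%, with 5 methylated cytosines within 20 bp. LHCB2.1 and LHCB2.2 shared 32 sites by spacing (10 at the next best offset). Over these sites the level was 5.47% in LHCB2.1 and 1.56% in LHCB2.2. Only 2 of them were methylated in LHCB2.1 and 1 in LHCB2.2, none in both, which is too few to compare positions.

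The remaining LHCB genes were low in the body with the exception of LHCB5. LHCB3, which forms trimers together with LHCB1 and LHCB2, was at 0.415%. Its higher-coordinate flank was at 53.6%, with 30 methylated cytosines in the myosin gene ATM2. LHCB4, LHCB5 and LHCB6 are the monomeric antenna proteins between the trimers and the PSII core. LHCB4.1 was at 0.354%, LHCB4.2 at 0.530% and LHCB6 at 0.344%, and none of them held a methylated body cytosine. LHCB4.3 (AT2G40100, chromosome 2, 16745628 to 16747424) was the lowest of the family over body and flanks, at 0.193% (0.130 to 0.287%). LHCB5 (AT4G10340, chromosome 4, 6408007 to 6409849) was at 6.50% (5.78 to 7.31%), with 9 methylated cytosines of 29.5% to 59.4% within 55 bp.

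The PSI subunit genes were the least methylated bodies of the list. Their median body level was 0.215%. Of the 12 bodies, 11 held no methylated cytosine, against 39.5% of all protein-coding genes and 55.2% of other genes of similar length. PSAD1, PSAD2, PSAE1 and PSAE2, whose proteins dock ferredoxin on the stromal side, were at 0.235%, 0.179%, 0.349% and 0.0748%. PSAF (AT1G31330, chromosome 1, 11214676 to 11216141) and PSAN, which serve plastocyanin on the lumenal side, were at 0.0608% and 0.245%. PSAF was also the lowest PSI gene over body and flanks, at 0.292% (0.202 to 0.422%). Of the subunits at the antenna contacts, PSAG, PSAK, PSAL and PSAO were at 0.261%, 0.218%, 0.212% and 0.0357%, the last from 1 methylated call of 2800. Of the body cytosines, 54 of 110 in PSAE1 and 38 of 46 in PSAG lay inside another annotated gene as well.

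PSAH1 (AT3G16140, chromosome 3, 5467987 to 5469594) was the exception among the PSI genes. PSAH is the subunit at which the mobile antenna of PSII binds to PSI. The body of PSAH1 was at 9.82% (8.95 to 10.8%), with 19 methylated cytosines. All 19 lay where the gene overlaps ROPGEF13 (AT3G16130), which encodes an activator of ROP GTPases, and the body outside this overlap was at 0.543%. Its paralogue PSAH2 had 1 methylated call of 1510 in the body, 0.0662%, and 20 methylated cytosines of its higher-coordinate flank lay in ROPGEF11.

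In contrast to their bodies, the PSI genes had a pooled flank level of 13.6%, close to the 12.6% of all other protein-coding genes. Of the 12, 11 had a methylated flank cytosine, while 42.7% of all protein-coding genes had none. PSAD1 (AT4G02770, chromosome 4, 1229031 to 1230164) was the highest PSI gene over body and flanks, at 19.6% (19.0 to 20.3%), with 46 methylated cytosines on the higher-coordinate side (73.4%), the nearest 445 bp away and none in a gene of the annotation used here. The higher-coordinate flank of PSAK was at 59.9%, with 39 methylated cytosines in the pseudogene AT1G30390, whose level was 87.6%. The lower-coordinate flank of PSAN was at 41.1%, with 26 methylated cytosines in AT5G64030, and that of PSAO at 33.4%, with 20 in DCP1, an mRNA decapping gene. In each of these cases a body without a methylated cytosine stood within 1000 bp of methylated DNA.

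The PSII genes listed encode the extrinsic proteins of the oxygen-evolving complex and PSBR. Their pooled level over body and flanks was the lowest of the 5 families, 4.15%, from 2903 of 69886 calls. By the median per gene the RBCS family was lower, at 0.923%, against 4.11% for PSII. PSBO1 (AT5G66570, chromosome 5, 26568572 to 26570461), the main manganese-stabilizing protein, was the lowest PSII gene, at 0.257% (0.183 to 0.361%), and its paralogue PSBO2 had a body level of 0.693%. Both had no methylated cytosine in body or flanks. PSBP1 (AT1G06680, chromosome 1, 2047634 to 2049439) had a body level of 2.32%, with 4 methylated cytosines within 8 bp. PSBQA (AT4G21280, chromosome 4, 11334352 to 11335815) was at 5.01% with 8 methylated cytosines within 39 bp. PSBQ2 (AT4G05180, chromosome 4, 2671523 to 2673243) was at 1.47% with both strands of 1 CpG site, and was the highest PSII gene over body and flanks, at 10.4% (9.85 to 11.0%). In PSBP1 and PSBQA the methylated body cytosines thus lay close together, while PSBQ2 had only 1 such site. PSBR, needed for stable binding of the extrinsic proteins, was at 0.284%.

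RBCS genes encode the small subunit of Rubisco, and 2 of the 4 held methylated body cytosines. RBCS1A on chromosome 1, the most strongly expressed RBCS gene, had a body level of 0.122%. The other 3 follow each other on chromosome 5. RBCS1B (AT5G38430, 15383167 to 15385320) was at 6.28% (5.67 to 6.94%), with 14 methylated cytosines of 37.1% to 65.2% within 146 bp. RBCS2B (AT5G38420, 15380907 to 15382071) was at 3.21% with 4 methylated cytosines within 8 bp. RBCS3B (AT5G38410, 15376988 to 15378642) was at 0.115% and, at 0.137% (0.0819 to 0.231%) over body and flanks, the lowest gene of the list. The highest RBCS gene over body and flanks was RBCS1B, at 25.4% (24.6 to 26.2%), since its higher-coordinate flank stood at 79.6%, with 44 methylated cytosines outside any gene of the annotation used here.

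Placed by CpG spacing, RBCS1B and RBCS3B shared 23 sites (6 at the next best offset). At these sites RBCS1B was at 15.7%, from 2120 calls, and RBCS3B at 0%, from 2114 calls. All 8 shared sites that were methylated in RBCS1B were unmethylated in RBCS3B. The match to RBCS2B was weaker, with 12 sites against 7 at the next best offset. RBCS1B was methylated at 7 of these 12 sites. Both methylated sites of RBCS2B fell on methylated sites of RBCS1B, 1251 bp and 1257 bp from its lower-coordinate end, with 60.6% and 46.7% in RBCS1B and 44.9% and 39.4% in RBCS2B. RBCS1A matched RBCS1B at 11 sites (8 at the next best offset), which is too few to read. For the LHCB4, PSAD, PSAE, PSAH, PSBO and PSBQ copies the best and next best offsets were also close, and no site-by-site comparison was made.

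**Figure D5:**
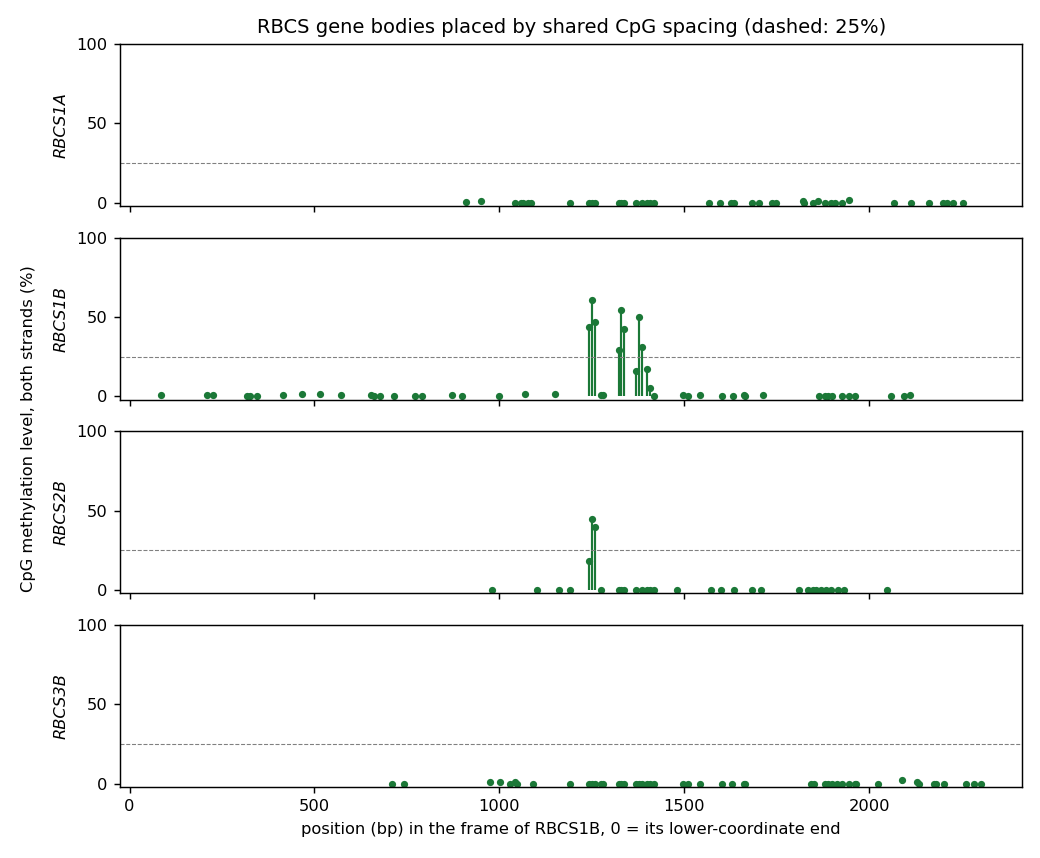
CpG methylation level (percent, both strands summed) at each CpG site of the bodies of the 4 RBCS genes, placed by shared CpG spacing on the coordinates of RBCS1B in bp from its lower-coordinate end, with a dashed line at 25%. RBCS1B and RBCS2B carry sites above 25% near 1251 bp, and RBCS1A and RBCS3B carry none, although the placing of RBCS1A is uncertain, with 11 matched sites against 8 at the next best offset.

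Of the 84 flanks, 38 held a methylated cytosine, a count not made by side for other protein-coding genes. The nearest lay at a median of 430.5 bp from the gene, and in 4 flanks it lay within 200 bp, once each in LHCA2 and LHCB2.1 and on both sides of LHCA5. Flanks without a methylated cytosine on either side were found for 12 genes, against 42.7% of all protein-coding genes, and 8 genes had none in body or flanks, against 21.0%. Of the 744 methylated flank cytosines, 445 (59.8%) lay inside another annotated gene, close to the 61.5% of all flank cytosines that do. Intermediate levels were less frequent here than in the bodies, with 263 of 744 (35.3%), against 19.4% in the flanks of other protein-coding genes.

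Several of the neighbours that hold these cytosines are long genes with methylated bodies. The lower-coordinate flank of LHCB1.2 was at 37.4%, with 24 methylated cytosines in CARB, a carbamoyl phosphate synthetase gene with a body level of 45.8%. The higher-coordinate flank of LHCB1.3 was at 34.4%, with 16 in NRPA2, a subunit gene of RNA polymerase I at 48.7%. The lower-coordinate flank of PSBP1 was at 24.0%, with 12 in NIH, a helicase gene at 52.3%. The higher-coordinate flank of PSBR was at 20.1%, with 10 in RECA1, a recombinase gene at 26.9%. The bodies of LHCB1.3 and PSBR nevertheless held no methylated cytosine.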

How the data were processed

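According to the study's methods, the authors filtered reads of enzymatic methyl-seq libraries of Arabidopsis DNA (labelled as leaf), aligned them with Bismark to TAIR10.1, kept uniquely mapped reads and removed duplicates. The authors deposited 1 table, pooled over libraries, with the raw counts of reads calling each CpG cytosine methylated or unmethylated, strand by strand and not normalized. Every covered cytosine had at least 5 reads.

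The 42 genes and the gene lists were chosen with earlier results of these data known. Genes were matched by locus tag to the RefSeq annotation of TAIR10.1. Its copy used here lists no strand and no exons, so flanks are named by coordinate. Levels were methylated calls over all calls, with 95% Wilson intervals, which treat the calls of a read as independent. In pooled levels, a cytosine in the flanks of 2 listed genes was counted once, and one in the body of a listed gene was counted as body only. A methylated cytosine had 25% or more, from at least 5 reads. Genes of similar CpG number lay within 10% of each gene's own number. Genes of similar length lay within 10% of the length of any listed gene. Only for the place among similar genes was each gene's own length used. No test was made, since the table is 1 sample. The self-test on simulated counts recovered the simulated levels.

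Named in full are the highest and lowest gene of each family over body and flanks and every gene with a methylated body cytosine, as well as neighbours that hold methylated flank cytosines and other photosynthesis genes with a body level of 10% or more. Planned descriptions of promoter motifs and protein identity were not made, since no sequence was used, and the placing of copies by CpG spacing took their place. The alternatives tried were other minimums of reads, of a methylated cytosine and of a methylated body, other flank lengths, summed strands, mean levels, leaving out cytosines above 195 reads (99.9th percentile), cytosines in other genes or LHCA2, and other ways of choosing similar genes. Calculations, including the intervals, were made in Python 3.11.15 with pandas 2.3.3 and numpy 2.4.6, and figures with matplotlib 3.10.9.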

Additional observations from a re-analysis of the deposited data

How the results depend on the processing

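A level or share of cytosines stayed if it lay within the counting interval, and a count if it lay within 1.5 times. The median share of lower similar genes has no counting interval, and for it only 54.6% and 51.5% were taken as moved. Of 75 comparisons of a result with an alternative, 40 stayed and 35 moved. A minimum of 1 read gave identical values in a further 8, by construction, since no cytosine has 1 to 4 reads. No paired analysis was possible because the table pools libraries and no test was made. With the mean of cytosine levels, the body level of the photosynthesis genes was 4.16%, flanks 16.0%, body and flanks 9.90%, LHCB 9.73%, LHCA 17.7% and PSI 9.41%. With flanks of 500 bp, flanks were at 9.15%, body and flanks at 5.62%, LHCB at 4.96%, LHCA at 14.6%, PSI at 4.01%, PSII at 1.73% and RBCS at 4.69%. With flanks of 2000 bp these were 19.4%, 14.0%, 14.7%, 17.9%, 14.4%, 9.61% and 10.7%, in the same order, so that the flank level depended on its length. Without flank cytosines inside other annotated genes they were 15.4%, 7.11%, 4.59%, 16.8%, 7.12%, 2.88% and 9.13%. Without LHCA2, chosen after its value was seen, the body level was 2.72%, body and flanks 8.57% and the share of intermediate body cytosines 95.6%. With both strands of a CpG summed, 513 methylated CpG sites took the place of 1011 cytosines, by construction. The median share of lower similar genes, 41.9%, was 54.6% among genes within 10% of each gene's own length and 51.5% with flanks of 2000 bp. The place of the photosynthesis genes on either side of the middle thus depended on these choices. With a minimum of 5% the methylated bodies numbered 10 (49.4% of all protein-coding genes), and with 20% they numbered 2 (26.7%). At single cytosines, a coverage near 58 reads limits precision, and the missing replicates leave the spread between plants unknown.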

Other observations

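Other genes of photosynthesis were not uniformly low in the body. Among 12 Calvin cycle genes, 6 had a body level of 10% or more (40.3% of all protein-coding genes do), namely GAPA (23.7%), SBPASE (17.9%), RPE (17.2%), TKL1 (16.4%), GAPB (11.7%) and PRK (10.9%), with a median length of 2469.5 bp over the list. Among 12 genes of chlorophyll synthesis, 6 did, namely CHLI1 (37.6%), CAO (37.4%), GSA1 (32.2%), CHLD (23.6%), CHLH (22.1%) and PORA (12.8%), with a median length of 2087 bp. Of 10 electron transport genes, with a median length of 1298.5 bp, only PETC (17.7%), the Rieske protein of the cytochrome b6f complex, did. In this list 8 held no methylated body cytosine, against 39.5% of all protein-coding genes and 55.2% of those within 10% of the length of any of the 42 genes. Of 5 other PSII genes only PSBS (35.3%), required for the rapid dissipation of excess light, had a body level of 10% or more. The list medians of body level were 9.19%, 11.3%, 0.346% and 0.662%, in the order given, beside 0.473% for the 42 genes and 4.71% for all protein-coding genes. The Calvin cycle and chlorophyll lists, with the longer genes, had the higher medians.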
